A study of Homo sapiens with 8 samples.

Results

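The genes described here are the fibroblast growth factor (FGF) receptors FGFR1, FGFR2, FGFR3, FGFR4 and FGFRL1, the ligands FGF1 and FGF2, and the ligand carrier FGFBP1. They were listed by symbol for their place in 1 signalling system, and 7 of the 8 had a row in a table of 13771 genes. FGFR3 had no row in the table used here and was not analysed. The values are RNA-seq levels in log2 CPM (reads scaled to library size by the authors, on the log2 scale) from 8 libraries of human breast epithelial cell lines. MCF10A is a non-tumorigenic line, and DCIS.COM, which descends from it through HRAS-transformed cells, grows as ductal carcinoma in situ in mice. Each line was transduced stably with the lentiviral vector pCDH, either empty (pCDH-empty) or carrying the long non-coding RNA HOTAIR (pCDH-HOTAIR), and all 4 groups went through puromycin selection. Each group has 2 libraries. Nothing in the labels says that these came from separate transductions or cultures, so a p-value here measures the spread between libraries, which may be technical. The culture media also differed. MCF10A was fed horse serum with added EGF, hydrocortisone, insulin and cholera toxin, whereas DCIS.COM was fed horse serum without these additions, so that line and medium cannot be told apart.

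FGF receptors are tyrosine kinases of the cell surface that bind FGFs together with heparan sulfate and signal mainly through RAS and ERK. FGFRL1 binds ligand but has no kinase domain. FGF1 and FGF2 are exported without a classical signal peptide and are held in the matrix by heparan sulfate, and FGFBP1 is a secreted protein that releases them from it. In the mammary gland, FGFR2 signalling is known for its part in epithelial branching, and FGFR1 is amplified in a subset of breast cancers.

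Library totals lay between 19306864 and 34884841 reads and were lowest in MCF10A pCDH-HOTAIR. HOTAIR itself had 45 and 40 reads in MCF10A pCDH-empty, 4614 and 4827 in MCF10A pCDH-HOTAIR, 119 and 140 in DCIS.COM pCDH-empty, and 7166 and 6385 in DCIS.COM pCDH-HOTAIR, which is the order of the labels. All 10 epithelial markers of a list for mammary basal cells, which also holds the luminal keratins KRT8 and KRT18 and the general markers CDH1 and EPCAM, were in the table and summed to 16466 to 18389 CPM in MCF10A and 7806 to 9247 CPM in DCIS.COM. Its members differed in direction. With the empty vector the mean level went from 5748 CPM in MCF10A to 46.4 CPM in DCIS.COM for KRT6A, from 1273 to 51.4 CPM for KRT14 and from 4359 to 714 CPM for KRT5, and KRT17 and CDH1 were also lower. It went from 587 to 3024 CPM for KRT8, from 585 to 1985 CPM for KRT18, from 67.7 to 342 CPM for EPCAM and from 12.8 to 21.7 CPM for TP63, and ITGA6 was also higher. Of the 4 luminal hormone-sensing markers 3 had a row, and their sum was at least 15.3 CPM in MCF10A and 33.2 CPM in DCIS.COM. These too differed in direction with the empty vector. From MCF10A to DCIS.COM, FOXA1 went from 7.48 to 23.8 CPM and GATA3 from 5.88 to 10.6 CPM, while ESR1 went from 3.11 to 2.25 CPM. No fibroblast marker of 6 had a row. PECAM1, the 1 endothelial marker of 3 with a row, lay at 1.70 to 2.69 CPM in MCF10A and 10.1 to 13.3 CPM in DCIS.COM. CD14, the 1 leukocyte marker of 3, lay at 18.6 to 24.4 CPM and 0.665 to 1.34 CPM. These markers move with the line, and their part in the results was not tested. The DCIS.COM pCDH-empty libraries differed from each other: transcripts of RN7SL1 and RN7SL2, the RNA of the signal recognition particle, made up 18.9% of the reads in library 1 and 12.5% in library 2, against 11.1% to 15.0% in the other 6. Leaving out library 2 of that group took the calls over all genes for HOTAIR in DCIS.COM from 12 to 1403, and leaving out library 1 took them to 60.

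The upstream sequences of 4 of the 5 members that were higher in DCIS.COM than in MCF10A with either vector are shown, so that their base composition can be compared. That of the remaining gene, FGF2, reaches furthest into its annotated transcript and is described without its letters. The FGFR2 and FGFR4 windows also run a short way past the annotated start of the gene. Each is the 250 bases before the outermost RefSeq start of the gene, matched to GRCh37 and written 5′ to 3′ on the gene's strand. Capitals mark the GC box GGGCGG in this orientation or its reverse complement.
FGFR2, chr10:123357959-123358208, minus strand, 1 of 5 RefSeq starts: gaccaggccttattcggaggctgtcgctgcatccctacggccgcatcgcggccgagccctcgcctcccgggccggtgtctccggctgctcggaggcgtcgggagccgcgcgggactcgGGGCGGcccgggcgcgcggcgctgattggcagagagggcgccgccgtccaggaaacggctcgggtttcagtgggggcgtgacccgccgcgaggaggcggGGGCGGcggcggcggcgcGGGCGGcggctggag
FGFR4, chr5:176513666-176513915, plus strand, 1 of 2 RefSeq starts: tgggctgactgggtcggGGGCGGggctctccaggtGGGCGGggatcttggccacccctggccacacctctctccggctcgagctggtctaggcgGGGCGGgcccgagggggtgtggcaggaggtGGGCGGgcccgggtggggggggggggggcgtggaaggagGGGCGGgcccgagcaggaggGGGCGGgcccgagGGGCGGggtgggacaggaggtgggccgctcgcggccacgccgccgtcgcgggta
FGFBP1, chr4:15940364-15940613, minus strand, 1 RefSeq start: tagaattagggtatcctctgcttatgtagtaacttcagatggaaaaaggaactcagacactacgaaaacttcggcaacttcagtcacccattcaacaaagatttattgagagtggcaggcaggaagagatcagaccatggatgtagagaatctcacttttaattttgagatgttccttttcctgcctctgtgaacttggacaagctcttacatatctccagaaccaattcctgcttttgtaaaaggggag
FGF1, chr5:142077636-142077885, minus strand, 1 of 4 RefSeq starts: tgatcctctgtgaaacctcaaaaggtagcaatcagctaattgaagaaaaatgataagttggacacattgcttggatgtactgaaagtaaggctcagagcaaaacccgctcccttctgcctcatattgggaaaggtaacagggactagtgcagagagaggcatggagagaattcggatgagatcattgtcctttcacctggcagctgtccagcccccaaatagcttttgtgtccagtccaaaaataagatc

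The FGFR2 and FGFR4 windows were rich in G and C (78.4% and 79.6%), held 42 and 24 CpG dinucleotides and had 3 and 7 GC boxes. The FGF2 window was likewise 75.2% G and C, with 33 CpG dinucleotides and 3 GC boxes. The FGFBP1 and FGF1 windows were 40.8% and 44.8% G and C, with 2 CpG dinucleotides each and no GC box. Over 35116 RefSeq windows of the same length the median was 58.0% G and C with 11 CpG dinucleotides, and 42.6% held a GC box on either strand. The AP-1 motif TGANTCA, present in 6.57% of all windows, and the CRE motif TGACGTCA, present in 1.65%, were in none of the 5. The 5 genes, all higher in DCIS.COM, thus had windows on either side of the median composition. Which start the cells use was not measured.

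FGFR2 was the receptor with the widest difference between the cell lines. The gene lies on chromosome 10 at 123237846-123357972 of GRCh37, minus strand. In MCF10A it had 3 and 2 reads with the empty vector and 2 and 2 with HOTAIR, so it was close to the limit of detection. In DCIS.COM it had 1008 and 826 reads (5.07 and 4.95 log2 CPM) with the empty vector and 1533 and 1342 reads (5.43 and 5.32 log2 CPM) with HOTAIR. The groups of the 2 lines were far apart with either vector. Normalized reads were 373 times higher in DCIS.COM with the empty vector (95% counting interval 159 to 1149) and 409 times higher with HOTAIR (160 to 1503). These intervals cover counting error only. On the log2 CPM scale, which understates changes from near 0 reads, the differences were 7.68 (SE 0.15, adjusted p = 1.22e-08) and 7.91 (SE 0.15, adjusted p = 1.11e-08). Only genes above 0.5 CPM in at least 2 libraries were kept, so FGFR2 has a row only through DCIS.COM. The direction was thus fixed in advance by this filter, and the p-values are no evidence for it.

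FGFR4, a receptor best known in liver and in muscle development, followed the same direction at a lower level. It lies on chromosome 5 at 176513906-176525145, plus strand. MCF10A had 4 and 5 reads with the empty vector and 2 and 1 with HOTAIR. DCIS.COM had 163 and 107 reads (2.46 and 2.02 log2 CPM) with the empty vector and 166 and 151 reads (2.25 and 2.19 log2 CPM) with HOTAIR. No MCF10A library reached any DCIS.COM library. Normalized reads were 30.5 times higher in DCIS.COM with the empty vector (counting interval 15.8 to 67.4) and 60.2 times higher with HOTAIR (20.4 to 293). The log2 differences were 4.37 (SE 0.27, adjusted p = 2.48e-06) and 5.00 (SE 0.27, adjusted p = 1.21e-06). As for FGFR2, the filter fixed this direction in advance, and the p-values are no evidence for it. Since RNA came from whole cultures, more cells with FGFR2 or FGFR4 transcripts and more transcripts per cell cannot be told apart.

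FGFR1 behaved otherwise, with a smaller difference between the lines whose sign was opposite under the vectors. The dependence on the vector did not pass its own test (adjusted p = 0.0624 in limma). The gene lies on chromosome 8 at 38257733-38326352, minus strand. Its levels in MCF10A were 3.71 and 3.69 log2 CPM with the empty vector and 4.19 and 4.14 with HOTAIR. In DCIS.COM they were 4.57 and 4.42 with the empty vector and 3.75 and 3.92 with HOTAIR. Each of these groups was separate from the group it was compared with. With the empty vector, FGFR1 was higher in DCIS.COM by 0.79 (SE 0.097, adjusted p = 0.000147), a fold change of 1.73. With HOTAIR the difference between the lines was -0.33 (SE 0.097, adjusted p = 0.0169), which is under the 1.5-fold threshold. FGFR1 overlaps LETM2, a mitochondrial membrane protein gene, and use of strand in counting is not given in the sources used here. LETM2 itself was lower in DCIS.COM, with a log2 difference of -2.30 under pCDH-empty and -2.11 under pCDH-HOTAIR.

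Levels of different genes can be set side by side only per length, here as CPM per kilobase of all annotated exons. On that scale FGFR1 made up 94.6% to 98.5% of the summed level of FGFR1, FGFR2 and FGFR4 in the 4 MCF10A libraries. In DCIS.COM pCDH-empty FGFR1 made up 32.2% and 33.4%, FGFR2 41.5% and 44.2%, and FGFR4 26.3% and 22.4%. In DCIS.COM pCDH-HOTAIR the shares were 19.3% and 22.2% for FGFR1, 56.7% and 54.0% for FGFR2, and 24.0% and 23.8% for FGFR4. FGFR2 thus had the largest of these shares in every DCIS.COM library and FGFR1 in every MCF10A library. The FGFR1 share was lower and the FGFR2 share higher in both HOTAIR libraries than in both empty-vector libraries of DCIS.COM. An exact two-sided permutation test of 2 against 2 libraries cannot go below p = 0.333, so this difference in shares was left without a test. The exons annotated for FGFR1 and FGFR2 add up to 17201 and 18813 bases, against 5697 and 4624 in their canonical transcripts. With canonical lengths, FGFR4 had a mean share of 12.2% in DCIS.COM pCDH-empty and 11.4% in pCDH-HOTAIR, and FGFR2 took 56.0% and 69.3%. The order of FGFR2 above FGFR1 in DCIS.COM was the same with either length and without scaling by length.

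**Figure D1:**
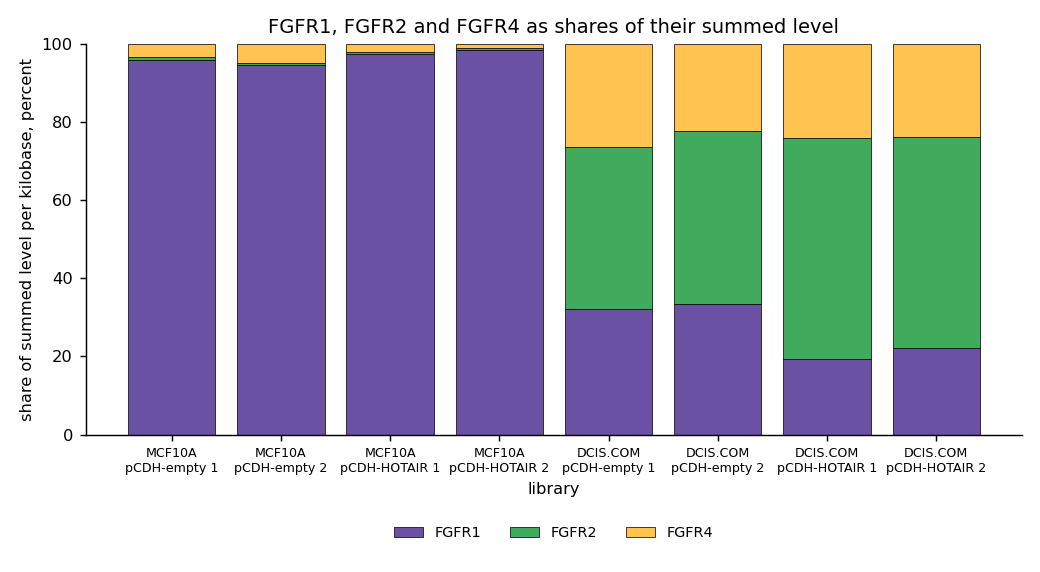
Stacked bars of the share (percent) of FGFR1, FGFR2 and FGFR4 in their summed level per kilobase of annotated exon, for each of the 8 libraries. FGFR1 takes at least 94.6% in MCF10A, while FGFR2 takes 41.5% to 56.7% in DCIS.COM.

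FGFRL1, the receptor without a kinase domain, was the 1 member with a lower level in DCIS.COM under both vectors. It lies on chromosome 4 at 1003724-1020686, plus strand. Its levels were 5.50 and 5.63 log2 CPM in MCF10A pCDH-empty and 5.59 and 5.85 in MCF10A pCDH-HOTAIR. They were 5.17 and 4.90 in DCIS.COM pCDH-empty and 4.76 and 4.70 in DCIS.COM pCDH-HOTAIR. All 4 DCIS.COM libraries lay under all 4 MCF10A libraries. With HOTAIR the difference was -0.99 (SE 0.12, adjusted p = 0.000149), so that the level in DCIS.COM was 0.503 times that in MCF10A. With the empty vector it was -0.53 (SE 0.12, adjusted p = 0.00474), short of a 1.5-fold change. It exceeded that change at -0.60 without MCF10A pCDH-empty 1 and at -0.67 without DCIS.COM pCDH-empty 1. Without DCIS.COM pCDH-empty 2 it shrank to -0.39, so its side of the threshold depended on the library left out.

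The ligands differed in abundance and in how far the cell lines were apart. FGF1, which binds every FGF receptor with a kinase, lies on chromosome 5 at 141971743-142077635, minus strand. It had 3 and 7 reads in MCF10A pCDH-empty and 1 and 6 in MCF10A pCDH-HOTAIR. In DCIS.COM it had 128 and 123 reads (2.11 and 2.22 log2 CPM) with the empty vector and 266 and 248 reads (2.92 and 2.90 log2 CPM) with HOTAIR. As with FGFR2 and FGFR4, every DCIS.COM library was above every MCF10A library. Normalized reads were 25.5 times higher in DCIS.COM with the empty vector (counting interval 13.6 to 53.8) and 41.8 times higher with HOTAIR (20.2 to 105). The log2 differences were 4.24 (SE 0.50, adjusted p = 0.000125) and 5.13 (SE 0.50, adjusted p = 4.21e-05). The latter was 4.34 without MCF10A pCDH-HOTAIR 1 and 5.93 without MCF10A pCDH-HOTAIR 2. Like FGFR2 and FGFR4, FGF1 has a row only through DCIS.COM. Its direction was thus fixed in advance, and the p-values are no evidence for it.

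FGF2, the basic FGF long used as a mitogen in culture, was abundant in both lines. It lies on chromosome 4 at 123747837-123819391, plus strand. Its levels in MCF10A were 6.51 and 6.60 log2 CPM with the empty vector and 6.57 and 6.61 with HOTAIR, a narrow range. In DCIS.COM they were 6.80 and 7.73 with the empty vector and 7.54 and 7.61 with HOTAIR, so that DCIS.COM pCDH-empty 1 stood below the other 3. With HOTAIR, FGF2 was higher in DCIS.COM by 0.99 (SE 0.24, adjusted p = 0.00748), a fold change of 1.98. With the empty vector it was higher by 0.71 (SE 0.24, adjusted p = 0.0306). The empty-vector call was not stable. It was lost without MCF10A pCDH-empty 1 (adjusted p = 0.125), MCF10A pCDH-empty 2 (0.0920), MCF10A pCDH-HOTAIR 1 (0.0562) or MCF10A pCDH-HOTAIR 2 (0.0562), and without DCIS.COM pCDH-empty 2, where the difference was 0.24. Without DCIS.COM pCDH-empty 1 it was 1.18. NUDT6, whose gene overlaps FGF2 on the other strand, was higher in DCIS.COM too, by 0.73 on the log2 scale with the empty vector, and reads of these genes may not be separable. FGF1 likewise overlaps the antisense gene SPRY4-AS1. Normalized reads of FGF2 exceeded those of FGF1 325 to 1838 times in the MCF10A libraries, which rest on 1 to 7 FGF1 reads each, and 24.9 to 46.3 times in the DCIS.COM libraries. Per kilobase the excess was 238 to 1346 times and 18.2 to 33.9 times.

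FGFBP1, the carrier that mobilizes FGF1 and FGF2, was the most abundant member per kilobase in all 4 groups. It lies on chromosome 4 at 15937200-15940363, minus strand. Its levels were 6.40 and 6.12 log2 CPM in MCF10A pCDH-empty and 5.76 and 5.38 in MCF10A pCDH-HOTAIR. In DCIS.COM they were 8.16 and 7.98 with the empty vector and 8.08 and 8.16 with HOTAIR. The lines were apart by far more than the spread within a group. FGFBP1 was higher in DCIS.COM by 1.81 with the empty vector (SE 0.14, adjusted p = 8.87e-06) and by 2.55 with HOTAIR (SE 0.14, adjusted p = 1.28e-06), which are fold changes of 3.51 and 5.86.

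Of the 7 members, 6 were called between the lines with the empty vector, all 6 higher in DCIS.COM. A call means an adjusted p under 0.05 in limma and a change of at least 1.5-fold. Over all 13771 genes this comparison called 46.3%, with 22.5% higher and 23.8% lower in DCIS.COM. With HOTAIR, 6 members were called, 5 higher and FGFRL1 lower, against 43.7% of all genes, 22.0% higher and 21.7% lower. The median log2 difference of the members was 1.81 with the empty vector and 2.55 with HOTAIR, against -0.00012 and 0.0035 over all genes. The table holds only genes above 0.5 CPM in at least 2 libraries. FGFR2, FGFR4 and FGF1 had at most 0.300 CPM in MCF10A, so they have rows only through DCIS.COM. Their direction was thus fixed in advance by this filter, and they enter the counts of calls and the medians given here. The groups of the lines did not overlap for any of the 7 members under either vector. The share of all genes without overlap between the lines was not computed, so this count does not set the members apart. Differences were common, as 9780 genes with the empty vector and 9459 with HOTAIR had an unadjusted p under 0.05 in limma. Both line comparisons use separate libraries, but all of them share the line and its medium.

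**Figure D2:**
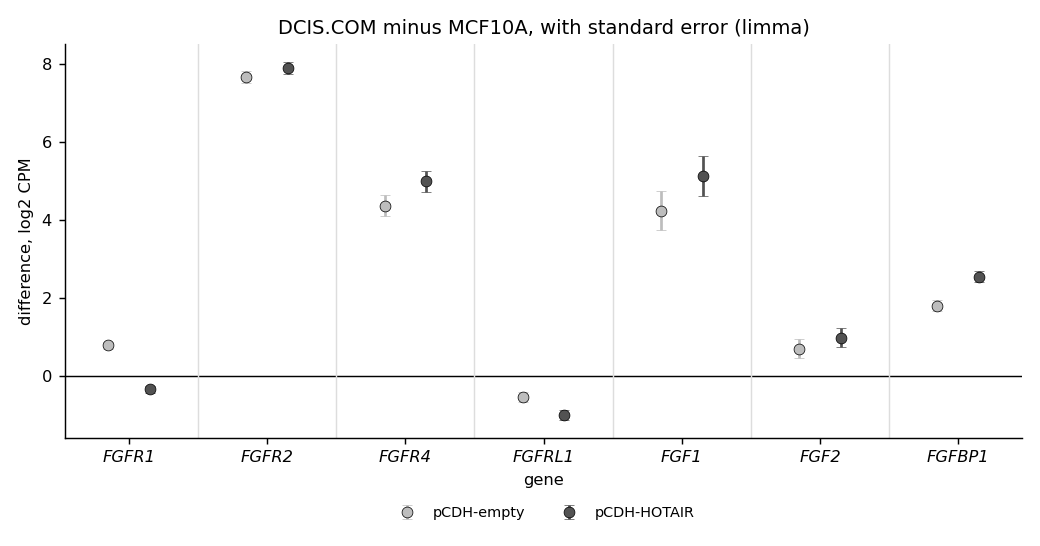
Difference DCIS.COM minus MCF10A in log2 CPM (y axis) for each gene, with the standard error from limma as bars, for the empty vector (light) and HOTAIR (dark). FGFR2, FGFR4 and FGF1 differ by 4.24 to 7.91, and FGFR1 is the 1 gene with points on opposite sides of 0.

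The comparison of HOTAIR with the empty vector asked which members moved with the lncRNA within a line. In MCF10A none of the 7 members was called, beside 0.0218% of all genes, which are 3 genes. An unadjusted p under 0.05 was found for 3 members and for 7.28% of all genes. The libraries of the vectors did not overlap for 4 members, FGFR1, FGFR2, FGFR4 and FGFBP1, and for 47.2% of all genes. FGFR2, with 3 and 2 reads under the empty vector and 2 and 2 under HOTAIR, separated only once scaled to library size. FGFR4 rested on 4 and 5 reads against 2 and 1. The median log2 difference was 0.036 over the members and -0.0055 over all genes.

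FGFBP1 and FGFR1 had the smallest p-values of the members in MCF10A. For FGFBP1 both HOTAIR libraries were lower than both empty-vector libraries, with a difference of -0.69 (SE 0.14, adjusted p = 0.231), or 0.620 times the level. The adjusted p was 0.0362 without DCIS.COM pCDH-empty 1 and 0.0371 without DCIS.COM pCDH-empty 2, libraries that enter this comparison through the shared estimate of spread, and up to 0.801 under the other alternatives. For FGFR1 both HOTAIR libraries were higher, by 0.46 (SE 0.097, adjusted p = 0.247), a fold change of 1.38 that no setting called. The difference for FGFR4 was -0.64 (SE 0.27, adjusted p = 0.653), but it compares 9 reads with 3. FGFRL1 had a difference of 0.15 (SE 0.12) and FGFR2 one of 0.14 (SE 0.15). FGF1 gave -0.15 (SE 0.50), with the sign turned at 0.35 without MCF10A pCDH-empty 2 and 0.65 without MCF10A pCDH-HOTAIR 1. FGF2 gave 0.036 (SE 0.24), and -0.0064 without MCF10A pCDH-empty 1. For these last 4 genes no difference was detectable at this depth and number of libraries.

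In DCIS.COM again none of the 7 members was called, where 0.0871% of all genes, 12 in number, were. An unadjusted p under 0.05 was found for 3 members and for 17.5% of all genes. The vectors' libraries did not overlap for FGFR1, FGFR2, FGFRL1 and FGF1, and for 49.2% of all genes. The median log2 difference was 0.051 over the members and 0.010 over all genes.

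FGFR1 came nearest to a call in DCIS.COM. Its difference was -0.66 (SE 0.097, adjusted p = 0.0816), or 0.632 times the empty-vector level. The difference passed the test after a loess correction for GC content (-0.59, adjusted p = 0.0245) and without DCIS.COM pCDH-empty 2 (-0.74, adjusted p = 0.000590), and its adjusted p ran up to 0.690 over the other alternatives. FGFR2 had a difference of 0.37 (SE 0.15, adjusted p = 0.277) and FGFRL1 one of -0.31 (SE 0.12, adjusted p = 0.269). FGF1 had 266 and 248 reads with HOTAIR against 128 and 123 with the empty vector, and a log2 difference of 0.74 (SE 0.50, adjusted p = 0.427). That error is shared by the 4 groups, whose SD was 0.70 and 1.13 in MCF10A, at 1 to 7 reads a library, and 0.075 and 0.013 in DCIS.COM. FGF2 turned with the library left out. Its difference was 0.31 (SE 0.24, adjusted p = 0.480) with all libraries, -0.16 without DCIS.COM pCDH-empty 1, and 0.78 without DCIS.COM pCDH-empty 2, where the adjusted p was 3.09e-05. FGFBP1 had 0.051 (SE 0.14), and -0.037 without DCIS.COM pCDH-empty 2. FGFR4 had -0.021 (SE 0.27), which was 0.049 after GC correction, 0.20 without DCIS.COM pCDH-empty 1 and 0.0052 without DCIS.COM pCDH-HOTAIR 2.

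**Figure D3:**
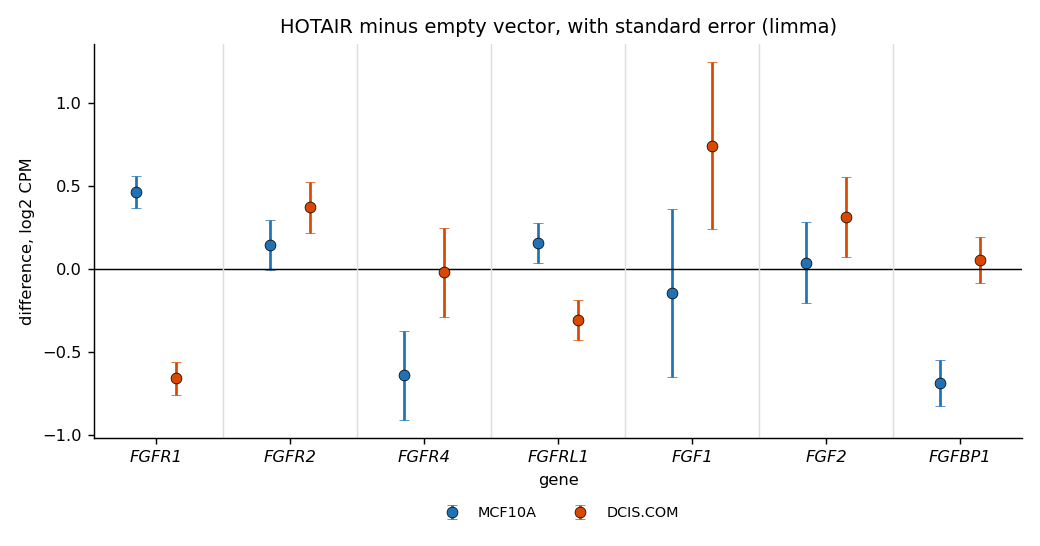
Difference pCDH-HOTAIR minus pCDH-empty in log2 CPM (y axis) for each gene in MCF10A (blue) and DCIS.COM (orange), with the standard error from limma as bars. FGFR1 lies at 0.46 in MCF10A and -0.66 in DCIS.COM, and FGFBP1 at -0.69 and 0.051.

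The difference between the cell lines in the HOTAIR change was tested as an interaction, called by an adjusted p under 0.05 alone. None of the 7 members was called, against 0.0436% of all genes, and 3 members and 10.5% of all genes had an unadjusted p under 0.05. FGFR1 had the widest separation relative to its error, -1.12 (SE 0.14, adjusted p = 0.0624), with HOTAIR libraries above the empty-vector libraries in MCF10A and below them in DCIS.COM. The adjusted p was 0.0424 with 1 CPM added before the logarithm, 0.0189 after GC correction, 0.0142 without DCIS.COM pCDH-empty 1 and 0.000325 without DCIS.COM pCDH-empty 2, and up to 0.478 otherwise. FGFBP1 had an interaction of 0.74 (SE 0.20, adjusted p = 0.350) and FGFRL1 one of -0.46 (SE 0.17, adjusted p = 0.440). Without DCIS.COM pCDH-empty 2, FGFBP1, FGFRL1 and FGF2 passed the test, at 0.65, -0.60 and 0.74, in a fit that called 4414 of all genes. FGF2 had 0.28 (SE 0.34) with all libraries and -0.19 without DCIS.COM pCDH-empty 1. HOTAIR, the overexpressed RNA, differed in its own change by -1.87 (SE 0.18, adjusted p = 0.0208). Over the alternatives with all 8 libraries this adjusted p ran up to 0.132. The HOTAIR level in DCIS.COM was higher by 1.58 with the empty vector (adjusted p = 1.08e-05), and the difference between the lines was -0.29 with pCDH-HOTAIR (adjusted p = 0.0694).

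The order of the members per kilobase of annotated exon began with FGFBP1, FGF2 and FGFRL1 in every group. In MCF10A pCDH-empty their mean levels were 5.83, 3.79 and 3.45 log2 CPM per kilobase, followed by FGFR1 at -0.40, FGF1 at -4.39, FGFR4 at -4.40 and FGFR2 at -6.90. FGF1 and FGFR4 overlapped there, and again in MCF10A pCDH-HOTAIR, where the order was the same. In DCIS.COM pCDH-empty FGFBP1 stood at 7.64, FGF2 at 4.50, FGFRL1 at 2.92, FGFR2 at 0.78, FGFR1 at 0.39, FGFR4 at -0.026 and FGF1 at -0.15, and the last pair overlapped. In DCIS.COM pCDH-HOTAIR FGFR2 stood at 1.15, FGF1 at 0.59, FGFR4 at -0.047 and FGFR1 at -0.27, with no overlap between neighbours. FGFR1 thus held rank 5 of 7 in DCIS.COM pCDH-empty and rank 7 in pCDH-HOTAIR. With canonical transcript lengths it held rank 5 with either vector, at 1.98 and 1.32 log2 CPM per kilobase, so its rank depended on the length used. With those lengths FGFRL1 also had a higher mean than FGF2 in MCF10A pCDH-HOTAIR, but its libraries (3.82 to 4.08) overlapped those of FGF2 (3.83 to 3.88). FGFR2 stood above FGFRL1 in DCIS.COM pCDH-HOTAIR without overlap.

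The rest of the FGF pathway was read from 6 lists with 106 genes, of which 79 were in the table. Between the lines with the empty vector 22 of these were called higher and 21 lower in DCIS.COM (54.4%), and with HOTAIR 23 higher and 24 lower (59.5%). The median log2 difference over the 79 genes was -0.14 and -0.27. The lists thus held calls in each direction, with shares somewhat above the 46.3% and 43.7% of all genes, a difference that was not tested.

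Among the other FGF ligands and binding proteins 4 of 22 were in the table, 2 called higher and 1 lower in DCIS.COM with either vector. FGF13, an intracellular member of the FGF family, was higher by 3.18 (SE 0.17) with the empty vector, with 37 reads in MCF10A and 365 in DCIS.COM. FGFBP2, a relative of FGFBP1, had 0 reads in MCF10A and 48 in DCIS.COM, at least 16.3-fold higher against a floor of 3 reads over the group. FGF11, also an intracellular FGF, was lower, with a difference of -2.05 (SE 0.47).

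Of the co-receptors and heparan sulfate proteoglycans 11 of 17 were in the table, with 5 called higher and 4 lower with the empty vector and 6 and 4 with HOTAIR. The cell surface proteoglycan GPC4 had no read in MCF10A and 468 and 633 in DCIS.COM, at least 159-fold higher with the empty vector and at least 120-fold with HOTAIR. Like FGFBP2, which also had no read in MCF10A, GPC4 has a row only through its level in DCIS.COM. SDC2 was higher by 3.75 (SE 0.26) and 2.65, while SDC3 was lower, with differences of -3.01 (SE 0.080) and -2.92. FLRT2, a membrane protein of a family that binds FGF receptors, was lower as well, at -2.89 (SE 0.13) and -2.97. The surface carriers of heparan sulfate thus went in different directions between the lines.

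Heparan sulfate synthesis and editing had 14 of 15 genes in the table, 2 called higher and 3 lower under each vector. HS6ST1, a 6-O-sulfotransferase, was higher by 1.13 (SE 0.083) and SULF2, a secreted enzyme that removes 6-O-sulfates, by 1.06 (SE 0.080) with the empty vector. HS3ST3A1, a 3-O-sulfotransferase, was lower at -4.09 (SE 0.13) and HPSE, the heparanase, at -1.84 (SE 0.12). With HOTAIR the corresponding differences were 0.95, 1.36, -4.26 and -1.73.

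All 25 receptor adaptors and effectors were in the table. With the empty vector 1 was called higher and 6 lower, and with HOTAIR 1 and 8. The 1 higher gene was HRAS, the oncogene of the transformed ancestor of DCIS.COM, by 2.95 (SE 0.061) and 2.90. GAB1, a docking protein, was lower, with differences of -1.77 (SE 0.13) and -1.45.

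The feedback inhibitors had 12 of 13 genes in the table, 7 called higher and 2 lower with the empty vector and 7 and 1 with HOTAIR, with medians of 0.97 and 0.94. SPRY1, a Sprouty inhibitor of receptor signalling, was higher by 3.90 (SE 0.17) and 3.22. IL17RD, also called SEF, an inhibitor of FGF signalling at the membrane, was higher by 3.75 (SE 0.12) and 3.19. CBLB, a ubiquitin ligase, was lower, at -1.73 (SE 0.11) and -1.92, and SPRY3 at -1.01 (SE 0.32) with the empty vector.

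The transcriptional targets of FGF and ERK signalling had 13 of 14 genes in the table. They were called higher in 5 cases and lower in 5 with the empty vector, and in 5 and 7 with HOTAIR, with medians of 0.082 and -0.75. ETV1, an ETS factor, was higher by 3.16 (SE 0.19) and 3.40, and EGR1, an immediate early factor, by 3.05 (SE 0.20) and 2.89. FOS was lower, at -3.15 (SE 0.14) and -2.59, and JUNB at -1.18 (SE 0.066) with the empty vector. Immediate early genes were therefore found on either side. The higher FGFR2, FGFR4 and FGF1 of DCIS.COM stood beside targets that were higher and targets that were lower.

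HOTAIR against the empty vector gave no call among the 79 pathway genes in either line or in the difference between lines. Over all genes the calls were 0.0218%, 0.0871% and 0.0436%. An unadjusted p under 0.05 was found for 10 of the 79 in MCF10A (12.7%, against 7.28% of all genes), 16 in DCIS.COM (20.3%, against 17.5%) and 16 in the difference (20.3%, against 10.5%). In MCF10A the listed genes with the smallest p-values were JUNB (log2 difference 0.30, SE 0.066), SDC2 (1.12, SE 0.26), SPRY1 (0.72, SE 0.17) and SPRY2 (-0.30, SE 0.084). The Sprouty genes therefore had differences of opposite sign. MAPK3, the kinase ERK1 (0.33, SE 0.11), FGF13 (0.47, SE 0.17) and FLRT3 (-0.24, SE 0.10) were also named by list. SDC2 and SPRY1 rested on 43 and 67 reads with the empty vector and 65 and 77 with HOTAIR. The lowest adjusted p of the 79 genes was 0.291.

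In DCIS.COM the listed genes with the smallest p-values were SULF2 (log2 difference 0.35, SE 0.080), FOS (0.60, SE 0.14) and SDC1 (0.23, SE 0.060), all with a higher mean under HOTAIR. SPHK1, a sphingosine kinase (-0.60, SE 0.17), IL17RD (-0.39, SE 0.12), DUSP5, a phosphatase of ERK (-0.39, SE 0.14), and AKT1 (-0.18, SE 0.074) had a lower one. FGF13 (0.60, SE 0.17), GPC6 (0.42, SE 0.12) and GLCE, an epimerase of heparan sulfate synthesis (0.24, SE 0.093), completed the genes named by list. The lowest adjusted p of the 79 genes was 0.179. The list medians lay between -0.11 and 0.31 in DCIS.COM and between 0.0022 and 0.11 in MCF10A.

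**Figure D4:**
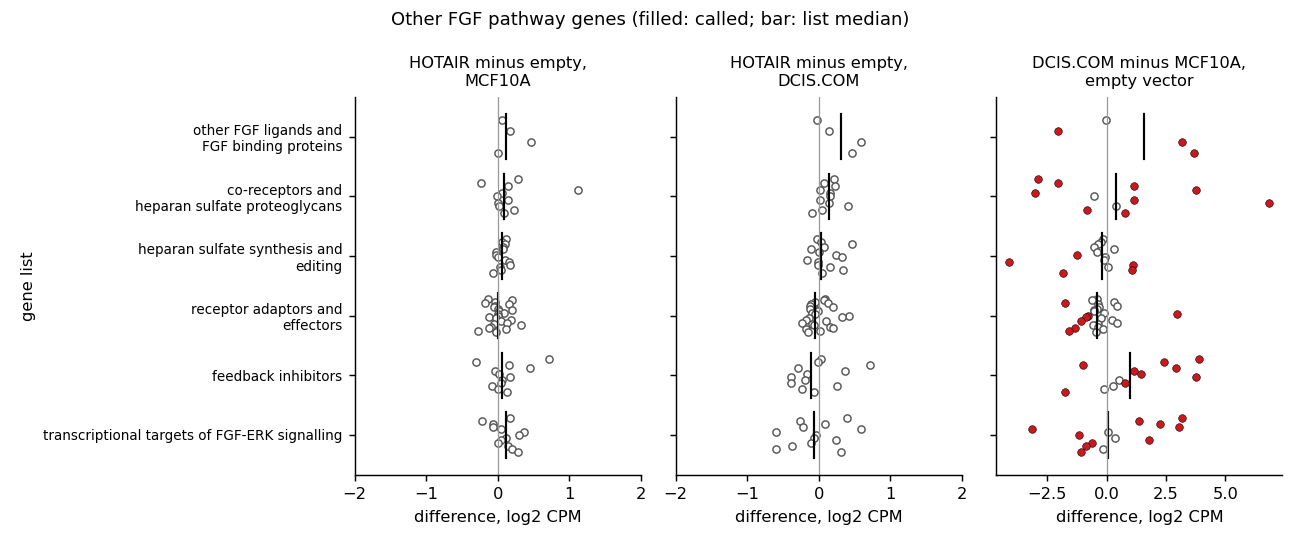
Log2 CPM differences (x axis) of the 79 other FGF pathway genes, each a point, by list (y axis), for HOTAIR in MCF10A, HOTAIR in DCIS.COM and the line comparison with the empty vector, whose axis is wider. Filled points are called genes and bars are list medians: there are 0 filled points for HOTAIR and 43 between the lines.

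Genes with the profile most like that of a member were found by the root mean square difference of log2 CPM over the 8 libraries, each gene centred on its own mean. This was done for the 5 members whose group means spanned at least 1 log2 unit. ROPN1B (0.18), ANKS6 (0.22) and IGFBP2 (0.22) were nearest to FGFR2, and KHDRBS3 (0.24), TMEM229B (0.25) and CMTM8 (0.27) to FGFR4. MPP2 (0.25), SCARA3 (0.29) and PYCARD (0.30) were nearest to FGF1, SNRPE (0.090), C3orf33 (0.10) and GEN1 (0.11) to FGF2, and KHK (0.16), HSD17B7 (0.18) and ISOC1 (0.20) to FGFBP1. The 8 points share 2 cell lines and 4 groups, and the likeness is a description only.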

How the data were processed

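The 8 RNA-seq libraries were made from total RNA of the transduced cells with a ScriptSeq kit and read as paired ends. Per the paper's methods and the submitters' processing notes, the authors aligned reads to hg19, used featureCounts on UCSC known genes and edgeR for normalization. What the authors deposited is a table of log2 CPM for genes above 0.5 CPM in at least 2 libraries. The prior count and the use of strand are not given in the sources used here. Whole reads were recovered from the steps of these values for 100% of the values (tolerance 0.05 reads, prior 0.0717 CPM). The design had been written for CPM with a pseudocount, and the deposited log2 values were used directly.

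Group means were fitted with limma 3.58.1 in R 4.3.3 (eBayes with a trend) on all 8 libraries, with Benjamini-Hochberg adjustment over 13771 genes, 343 of them without a symbol. The fit was tried on simulated reads that had the same spread in all groups. That trial cannot show how the difference between the DCIS.COM pCDH-empty libraries bears on the calls. Calls needed an adjusted p under 0.05 and a 1.5-fold change. The members and lists were chosen with earlier results of these data known. Named were all members, HOTAIR, listed genes called in a HOTAIR comparison, up to 2 per list and HOTAIR comparison with the smallest unadjusted p under 0.05, and up to 2 per list and direction with the largest called change between lines. A gene that this rule also named is not reported here. Lengths and positions came from GENCODE release 44 on GRCh37, and upstream sequences from RefSeq. Python 3.11.15 was used for the rest.

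Alternatives were median centring, quantile normalization, 1 CPM added, a mean CPM of at least 2, no trend, the replicate block, separate fits, loess on GC content (known for 13267 genes), limma-voom on recovered reads, other fold thresholds, no length scaling and each library left out. With a library left out, the lone library of its group is assumed to vary like the other groups. Canonical transcript lengths were added after seeing the data. The counting intervals are 95% and cover counting error only.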

Additional observations from a re-analysis of the deposited data

Results flagged for a closer look

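12 genes among the members, HOTAIR and the 79 pathway genes were flagged by rule. Either the difference between the lines passed its test, or the HOTAIR libraries lay above the empty-vector libraries in 1 cell line and below them in the other. The share of all genes with such opposite placement was not computed. Since the vectors' libraries did not overlap for 47.2% of all genes in MCF10A and 49.2% in DCIS.COM, the placement alone does not set a gene apart. HOTAIR itself passed the test of the difference (-1.87, adjusted p = 0.0208 in limma), with a log2 change of 7.28 in MCF10A and 5.41 in DCIS.COM. This call was not stable, as the adjusted p ran from 0.0146 to 0.132 over the alternatives with all 8 libraries. For FGFR1 the HOTAIR libraries were higher in MCF10A (0.46) and lower in DCIS.COM (-0.66), and the difference of -1.12 had an adjusted p of 0.0624. The other 10 also had opposite placement, and none of these or FGFR1 passed the test of the difference (lowest adjusted p of the 10, 0.375). Several of them were named after their values were seen. FOSL1 had a difference of -0.96, SPHK1 of -0.80, the Sprouty gene SPRY4 of -0.73 and MYC of -0.50. AKT1 (-0.29), SHC1 (-0.26), DUSP4 (-0.25) and CRKL (-0.18) followed in the same direction, with values above 0 in MCF10A and below 0 in DCIS.COM. NRAS (0.45) and the ERK phosphatase DUSP6 (0.34) had the opposite order.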

How the results depend on the processing

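With 2 libraries a group, 588 values of member changes were recomputed, of which 557 kept their direction and their side of the threshold, 15 passed it newly, 7 lost it and 9 changed sign. Called members were 0 for HOTAIR in MCF10A, 0 in DCIS.COM and 0 in the difference, and 6 and 6 between the lines. GC correction called 1 in DCIS.COM (FGFR1) and 1 in the difference, and 1 CPM added called 1 in the difference. With a library left out the counts ran from 0 to 1 in MCF10A, 0 to 2 in DCIS.COM and 0 to 4 in the difference. Leave-one-out ranges that crossed 0 were -0.94 to 0.65 for FGF1 and -0.0064 to 0.078 for FGF2 in MCF10A, -0.24 to 0.20 for FGFR4 (0.049 after GC correction), -0.16 to 0.78 for FGF2 and -0.037 to 0.14 for FGFBP1 in DCIS.COM, and -0.19 to 0.74 for FGF2 in the difference. FGF2 between the lines with the empty vector lost its call without the trend (adjusted p = 0.0570 in limma) and with separate fits (0.0891), and FGFRL1 gained one after GC correction (-0.66). The cause was not tested.

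The replicate numbers were not taken to pair the samples, and the labels do not say whether they do. Deviations of same-numbered libraries correlated at 0.066 in MCF10A and -0.0089 in DCIS.COM. With 2 libraries a group, these values cannot settle whether the libraries were prepared as pairs. The fit with the replicate block called 0, 0, 0, 6 and 6 members, and over all genes 2 in MCF10A, 20 in DCIS.COM and 0 in the difference, against 3, 12 and 6 without it. Over all genes, MCF10A gave 7 calls with 1 CPM added, 15 after GC correction, 5 with voom, 1 with separate fits and 1 to 51 with a library left out. DCIS.COM gave 6 without the trend, 0 with separate fits, 51 after GC correction and 1 to 1403 with a library left out, and the difference gave 10 with 1 CPM added, 0 without the trend, 24 after GC correction and 0 to 4414. Without length scaling FGFR4 had 7.88% and 7.60% of the receptor level in DCIS.COM with the empty vector and HOTAIR, FGFR1 37.9% and 23.6%, and FGFR2 54.2% and 68.8%. FGFR2, FGFR4 and FGF1 in MCF10A had 1 to 7 reads per library, so changes with HOTAIR were not detectable there at this depth.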
